A study of Caenorhabditis elegans with 8 samples.

Results

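The enzymes that methylate, demethylate and deacetylate histones were followed through 4 days and 12 days of adulthood in Caenorhabditis elegans, in mutants of the microRNA mir-83 and in the wild type. The 57 members were all genes of the deposited tables named set, mes, met, hda, jmjd, utx or lsd with a number, among 18340 genes counted in both tables. They comprise 32 set genes, 10 demethylase genes (jmjd, utx and lsd), 8 hda genes, 5 mes genes and 2 met genes. The name decided membership, not any measured value. One of the mes genes, mes-1, encodes a receptor-tyrosine-kinase-like membrane protein and not a histone enzyme, and it is kept only because the name pattern includes it. In addition, set-33 is annotated as a pseudogene.

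Worms of the strain MT15501, labelled as a mir-83 mutant without an allele, were collected at adult day 12 and adult day 4, and worms of the wild-type strain N2 at the same ages. All 4 groups were grown at 20 °C on plates containing FuDR, an inhibitor of DNA synthesis commonly used to keep progeny from developing, and total RNA of whole worms was sequenced. Each group had 2 libraries, 8 in all, with 20270542 to 41181094 reads each. The labels do not say whether replicates came from separate cultures, so the p-values measure the spread between these libraries, which may be technical. Each genotype is represented by 1 strain, so that the mutation and the rest of the strain background cannot be told apart. The mir-83 locus was not analysed here, and the genotypes are given as labelled.

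Histone lysine methylation is written by SET-domain enzymes and removed by Jumonji and LSD1-type demethylases, and its effect depends on the residue. Methylation of lysine 4 or lysine 36 of histone H3 marks active genes, whereas methylation of lysine 9 or lysine 27 of H3 marks silent ones. Histone deacetylases (HDACs) remove acetyl groups and generally accompany repression. In the worm, several of these enzymes act in the germline and are loaded into eggs, and changes in the H3K4, H3K9 and H3K27 machinery alter lifespan.

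Levels are given in CPM, the reads of a gene relative to all reads of its library after TMM scaling, which is a correction for libraries in which a few genes take many of the reads. Per kilobase of transcript and averaged over the 8 libraries, the most abundant members were the H4K20 methyltransferase gene set-1 at 109 CPM per kilobase and the class I deacetylase gene hda-1 at 108 CPM per kilobase. The next were set-17 at 87.1, hda-3 at 51.5, hda-6 at 47.0, set-4 at 42.4 and mes-3 at 42.1 CPM per kilobase. At the other end, jmjd-1.1, set-33 and set-11 stood at 0.804, 0.600 and 0.360 CPM per kilobase. The sparsest member, set-8, had too few reads to be tested, which left 56 members among 15874 tested genes.

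The libraries were not alike in ways the members share. Both mir-83 day 4 libraries had TMM factors of 0.644 and 0.596, against 1.08 to 1.23 in the other 6, and their 10 most abundant genes took 12.1% and 14.2% of the reads. In those libraries the summed markers of intestine stood at 99520 and 136300 CPM, against 21170 and 19880 CPM in N2 at day 4, and those of body wall muscle at 5657 and 4797 CPM, against 909 and 1178 CPM in N2 at day 4. The intestine list includes the yolk protein genes vit-2, vit-5 and vit-6, and a sum leans on its most abundant genes. Gene by gene, log2 fold changes of mir-83 over N2 at day 4 ran from 0.094 to 2.579 for the 7 intestine markers. For the 7 muscle markers they ran from 0.994 to 3.015. At day 12 intestine markers summed to 1429 and 4338 CPM in mir-83 worms and 3776 and 5629 CPM in N2 worms, and muscle markers to 138 and 312 CPM in mir-83 worms and 197 and 272 CPM in N2 worms. Of the mir-83 day 12 libraries, replicate 2 correlated more closely with N2 day 4 replicate 2 (r = 0.952 across genes) than with replicate 1 of its own group (r = 0.894), which in turn correlated at r = 0.975 with N2 day 12 replicate 1. Genes are not independent replicates, so these r values describe the libraries. Counts of calls with age in mir-83 worms are therefore also given without each of these libraries. Since whole worms were sequenced, fewer cells of a type and less RNA per cell cannot be told apart.

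**Figure D1:**
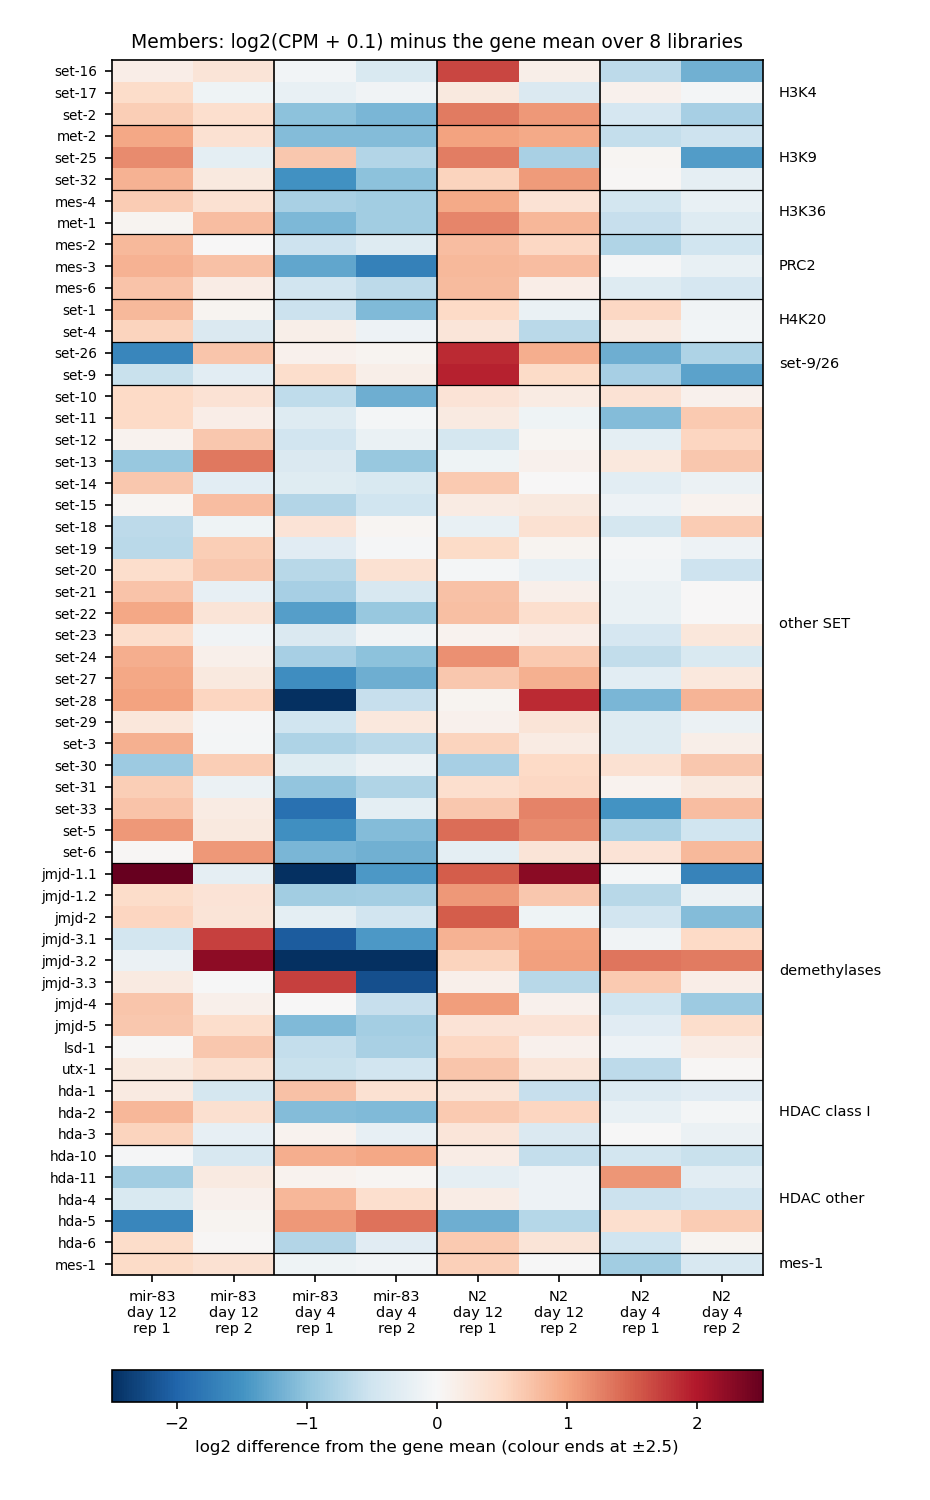
Each row is 1 of the 56 tested members, ordered by role, and each column 1 of the 8 libraries; colour gives log2(CPM + 0.1) minus the gene's mean over the libraries, ending at ±2.5. The mir-83 day 4 columns are the lowest for jmjd-3.2, mes-3 and set-1 and the highest for hda-10 and hda-5, and N2 day 12 replicate 1 is deep red for set-9 and set-26.

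With age, far more members were called higher than lower, in both strains. A call is an adjusted p under 0.05 in edgeR's quasi-likelihood test with Benjamini-Hochberg adjustment over all tested genes. Between day 12 and day 4 in mir-83 worms, 20 of 56 members (35.7%) rose, against 12.8% of all tested genes, and 2 (3.57%) fell, against 15.1%. Between the same ages in N2 worms, 7 of 56 (12.5%) rose, against 2.1% of all genes, and 0 fell, against 2.39%. The median log2 fold change of the members was 0.86 in mir-83 worms and 0.53 in N2 worms, whereas the median of all tested genes was 0.05 in mir-83 worms and -0.09 in N2 worms. In N2 the lower side held 1 member, hda-5, with a raw p under 0.05, and DESeq2 likewise called 1 member lower.

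At day 4 the members leaned lower in the mutant in the fit to all libraries, with few individual calls. In mir-83 against N2 worms at that age, 3 of 56 members (5.36%) fell, against 2.63% of all tested genes, and 1 (1.79%) rose, against 4.43%. Their median log2 fold change was -0.47, and that of all genes was -0.14. This lean was absent without N2 day 4 replicate 2, where the medians were -0.19 for the members and -0.2 for all genes. Without N2 day 4 replicate 1 they were -0.58 and -0.016. They were -0.37 and -0.21 without mir-83 day 4 replicate 1, and -0.48 and -0.11 without its replicate 2. Both mir-83 libraries lay below both N2 libraries for 28 members (50.0%), against 35.4% of all genes, and above both for 8 members (14.3%), against 29.5%. At day 12, 0 members rose and 0 fell between mir-83 and N2 worms, as did 0% of all genes. The members' median there was -0.04, the groups did not overlap for 4 members higher in the mutant (7.14%, against 5.49% of all genes) and 6 lower (10.7%, against 8.25%), 3 were lower and 0 higher with a raw p under 0.05, against 1.93% of all genes in either direction, and DESeq2 called 0 members and 0.0252% of all genes.

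In the same count of groups that did not overlap, both day 12 libraries lay above both day 4 libraries for 39 members (69.6%) in mir-83 worms, against 33.9% of all genes, and for 32 members (57.1%) in N2 worms, against 29.5%. They lay below for 6 members (10.7%) in mir-83 worms, against 32.7% of all genes, and for 5 members (8.93%) in N2 worms, against 30.1%. The comparison at day 4 and the comparison with age in mir-83 worms share the mir-83 day 4 libraries, and the comparison at day 4 and the one with age in N2 share the N2 day 4 libraries. A low value in a shared day 4 library therefore enters both.

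**Figure D2:**
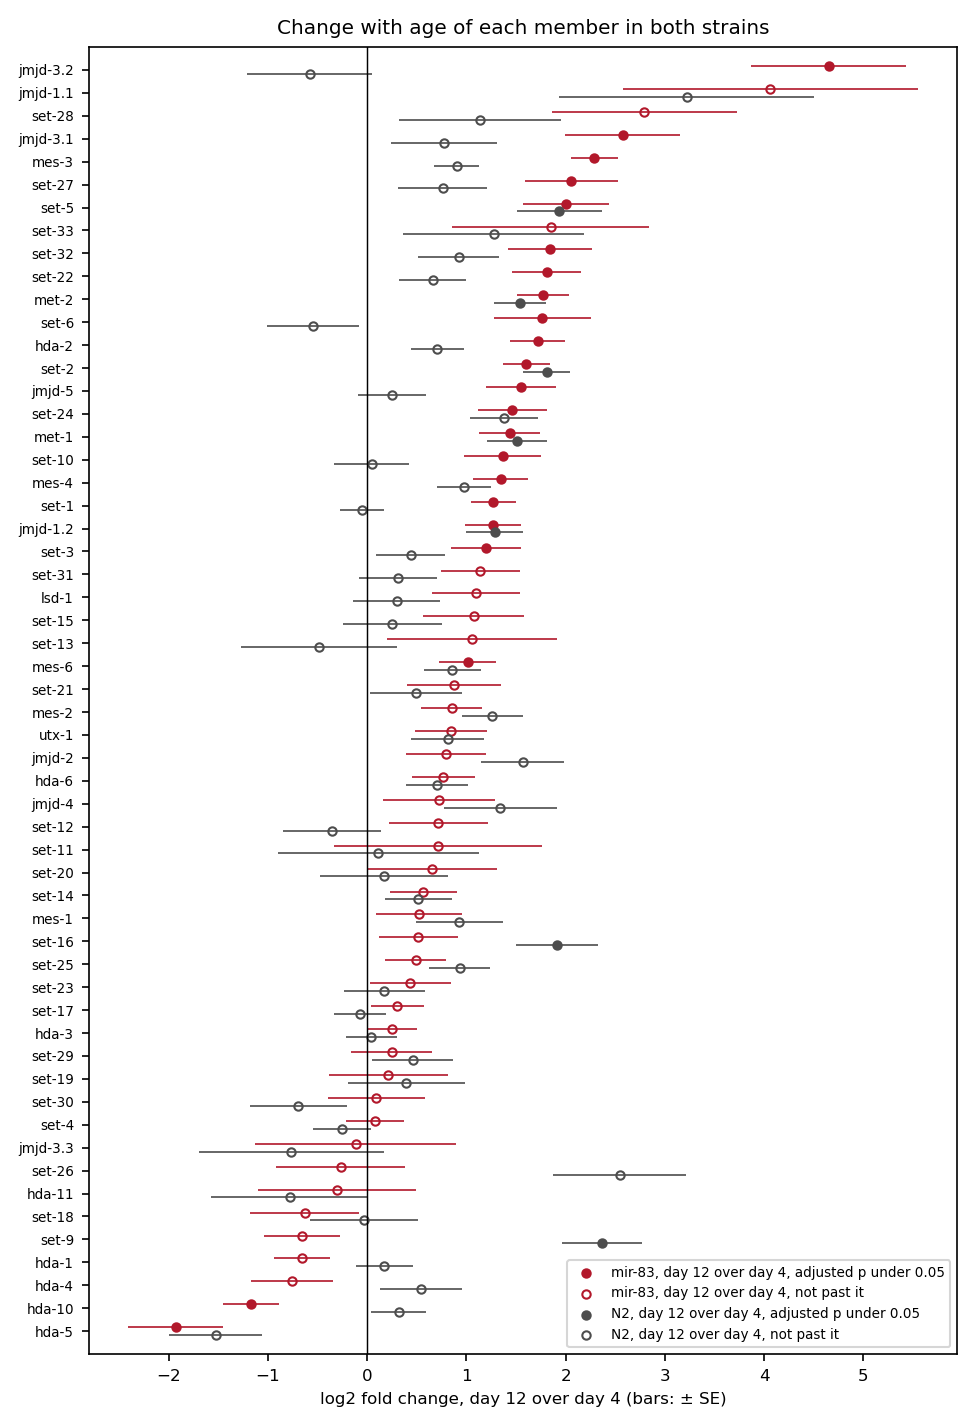
The log2 fold change of day 12 over day 4 with its standard error is plotted for each tested member in mir-83 worms (red) and N2 worms (grey), filled where the adjusted p was under 0.05. In mir-83 worms 20 members are filled to the right of 0 and hda-10 and hda-5 to the left; in N2 worms 7 are filled, all to the right.

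Of the H3K4 methyltransferase genes, set-2, which encodes the catalytic subunit of the COMPASS complex, rose with age in both strains. set-2 was at 93.3 and 82.3 CPM at day 12 and 30.1 and 27.5 CPM at day 4 in mir-83 worms, against 151 and 129 CPM at day 12 and 45.7 and 34.6 CPM at day 4 in N2 worms. Every day 12 library of set-2 lay above every day 4 library of both strains. The log2 fold change with age was 1.60 ± 0.24 (SE) in mir-83 worms and 1.81 ± 0.24 in N2 worms, with edgeR adjusted p of 0.00473 and 0.0223. In mir-83 against N2 at day 12, set-2 had a raw p of 0.0186 and a log2 difference of -0.67 ± 0.23.

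The MLL-type enzyme gene set-16 passed the threshold with age in N2 worms and not in mir-83 worms. set-16 had 43.2 and 48.3 CPM at day 12 and 36.4 and 29.5 CPM at day 4 in the mutant, against 122 and 42.4 CPM at day 12 and 24.4 and 16.6 CPM at day 4 in N2. The N2 day 12 libraries were far apart, and the lower of them lay within the mir-83 values. Its log2 fold change with age was 0.52 ± 0.40 in mir-83 worms (edgeR adjusted p = 0.346) and 1.92 ± 0.41 in N2 worms (adjusted p = 0.0438), where it was 1.18 without N2 day 12 replicate 1 (adjusted p = 0.239); the difference of the mir-83 effect between ages was -1.4 ± 0.57, at an adjusted p of 0.242. The third gene of the group, set-17, whose product methylates H3K4 in the germline, ranged from 66.1 to 115 CPM over the 8 libraries and was called in none of the 5 comparisons.

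Among the H3K9 methyltransferase genes, met-2, the SETDB1-like enzyme that places mono- and dimethylation, rose with age in both strains. For met-2, mir-83 worms had 152 and 101 CPM at day 12 and 36.5 and 36.7 CPM at day 4, and N2 worms had 156 and 151 CPM at day 12 and 51.3 and 54.4 CPM at day 4. Its log2 fold change was 1.77 ± 0.26 in mir-83 worms and 1.54 ± 0.26 in N2 worms (edgeR adjusted p = 0.00495 and 0.0291), and the ages did not overlap in either strain. set-32 had 36.3 and 23.7 CPM at day 12 and 6.96 and 9.74 CPM at day 4 in the mutant, against 29.5 and 41.7 CPM at day 12 and 20.4 and 17.1 CPM at day 4 in N2. This gene, linked to small-RNA silencing in the germline, rose in mir-83 worms by 1.85 ± 0.42 (adjusted p = 0.0175), with 0.92 ± 0.41 in N2 worms (adjusted p = 0.184).

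The gene of the trimethylating enzyme SET-25 differed between the deposited tables in every group. set-25 was at 74.7 and 27.5 CPM at day 12 and 52.6 and 19.8 CPM at day 4 in mir-83 worms, against 79.5 and 18.6 CPM at day 12 and 34 and 12.3 CPM at day 4 in N2 worms. Replicate 1 was the higher library in each of the 4 groups. On average replicate 2 lay -1.60 from replicate 1 on the log2 scale, and set-25 overlaps F56A8.8 by 935 bases on the opposite strand. The sources used here do not say whether reads were counted by strand. By edgeR set-25 was called in none of the 5 comparisons, while DESeq2 gave it an adjusted p of 0.0393 with age in N2 worms.

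The H3K36 methyltransferase genes met-1 and mes-4 both rose with age in mir-83 worms. A further gene with an H3K36 role, set-18, is given below with the other SET-domain genes and was not called by edgeR. met-1 was at 58.5 and 94.8 CPM at day 12 and 25.6 and 30.4 CPM at day 4 in mir-83 worms, against 131 and 99.4 CPM at day 12 and 37.3 and 44.7 CPM at day 4 in N2 worms. The product of met-1 is the SET2-like enzyme that follows transcribing RNA polymerase. Its log2 fold change with age was 1.43 ± 0.31 in mir-83 worms and 1.51 ± 0.31 in N2 worms, with edgeR adjusted p of 0.0136 and 0.0379. mes-4 had 123 and 103.8 CPM at day 12 and 45.5 and 43.4 CPM at day 4 in the mutant, against 154 and 102 CPM at day 12 and 58.0 and 69.9 CPM at day 4 in N2. MES-4 maintains H3K36 methylation on germline genes and is passed to the embryo; its gene rose by 1.34 ± 0.27 in mir-83 worms (adjusted p = 0.0118), with 0.97 ± 0.27 in N2 worms (adjusted p = 0.0771).

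The PRC2 genes encode the worm's H3K27 methyltransferase complex, of which MES-2 is the catalytic subunit, MES-6 the EED-like subunit and MES-3 a further subunit. On chromosome I, mes-3 was lowest in the mir-83 day 4 libraries. mes-3 was at 202 and 183 CPM at day 12 and 44.9 and 34.3 CPM at day 4 in mir-83 worms, against 194 and 189 CPM at day 12 and 108 and 97.5 CPM at day 4 in N2 worms. All 4 groups held tight pairs, and the mir-83 day 4 pair was below every other library. At day 4 the log2 fold change of mir-83 over N2 was -1.38 ± 0.23 (edgeR adjusted p = 0.0236), and at day 12 it was 0.00 ± 0.23 (adjusted p = 1.000). With age mes-3 rose by 2.29 ± 0.24 in mir-83 worms (adjusted p = 0.00211), with 0.90 ± 0.23 in N2 worms (adjusted p = 0.0624).

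Neither other PRC2 gene was called between the strains. mes-6 had 67.3 and 46.2 CPM at day 12 and 29.3 and 26 CPM at day 4 in the mutant, against 71.2 and 45.9 CPM at day 12 and 32.6 and 30.5 CPM at day 4 in N2. With age mes-6 rose by 1.01 ± 0.29 in mir-83 worms (edgeR adjusted p = 0.0347), with 0.86 ± 0.29 in N2 worms (adjusted p = 0.112). Its annotated span shares 491 bases with C09G4.4 on the same strand, and in replicate 2 it was matched by name alone. The catalytic gene mes-2 had log2 fold changes with age of 0.85 ± 0.31 in mir-83 worms and 1.26 ± 0.31 in N2 worms, with adjusted p of 0.0702 and 0.0587. For all 3 PRC2 genes the day 12 libraries lay above the day 4 libraries in both strains.

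Of the H4K20 methyltransferase genes, set-1 fell in the mutant at day 4 and rose with age in the mutant. SET-1 places the first methyl group on lysine 20 of histone H4, and SET-4 adds further ones. For set-1, mir-83 worms had 234 and 139.9 CPM at day 12 and 91.0 and 61.7 CPM at day 4, and N2 worms had 187 and 119 CPM at day 12 and 191 and 125 CPM at day 4. In each group replicate 1 was the higher library; the mir-83 day 4 pair was below every N2 library. The log2 fold change of mir-83 over N2 at day 4 was -1.04 ± 0.22 (edgeR adjusted p = 0.0355), and at day 12 it was 0.28 ± 0.22, the smallest p of any member higher in the mutant there (edgeR adjusted p = 1.000). With age set-1 rose by 1.27 ± 0.22 in mir-83 worms (adjusted p = 0.00741), with -0.05 ± 0.22 in N2 worms (adjusted p = 0.896). The day 4 call for set-1 was lost with a gene length correction (adjusted p = 0.0929) and with RLE scaling (adjusted p = 0.0555). The other gene, set-4, ranged from 33.8 to 79.4 CPM and was called in no comparison.

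The paralogs set-9 and set-26, on chromosome IV at 4307896 to 4317140 and 16646791 to 16655883 (WBcel235), encode near-identical proteins that bind methylated H3; set-26 is known for limiting lifespan and set-9 for acting in the germline. For set-9 both day 12 libraries were below both day 4 libraries in the mutant and above them in N2. set-9 was at 39.6 and 48.9 CPM at day 12 and 79.9 and 64.7 CPM at day 4 in mir-83 worms, against 223 and 81.5 CPM at day 12 and 32.9 and 23.2 CPM at day 4 in N2 worms. For set-26, mir-83 worms had 15.3 and 77.6 CPM at day 12 and 51.1 and 50.0 CPM at day 4, and N2 worms had 174 and 89.7 CPM at day 12 and 20.4 and 27.8 CPM at day 4. N2 day 12 replicate 1 was the highest library for both genes, and the mir-83 day 12 libraries disagreed for set-26.

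With age, set-9 had a log2 fold change of -0.66 ± 0.39 in mir-83 worms (edgeR adjusted p = 0.221) and rose by 2.37 ± 0.40 in N2 worms (adjusted p = 0.0292). For set-26 these log2 fold changes were -0.27 ± 0.65 in mir-83 worms and 2.54 ± 0.67 in N2 worms, with adjusted p of 0.777 and 0.0683. Without mir-83 day 12 replicate 2, both genes were called lower with age in the mutant, set-9 at -1.25 ± 0.41 (edgeR adjusted p = 0.0478) and set-26 at -1.82 ± 0.46 (adjusted p = 0.0205), and without replicate 1 neither was. Without N2 day 12 replicate 1, the value of set-9 with age in N2 worms was 1.63 (adjusted p = 0.0926). At day 12, set-9 had the smallest p of all members, with mir-83 over N2 at -1.64 ± 0.40 (edgeR adjusted p = 1.000). That difference was -2.49 between the replicate 1 libraries and -0.74 between the replicate 2 libraries. At day 4 the estimates of mir-83 over N2 were positive, 1.38 ± 0.39 for set-9 (adjusted p = 0.0688) and 1.1 ± 0.64 for set-26 (adjusted p = 0.309).

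The difference of the mir-83 effect between ages was -3.02 ± 0.56 for set-9, the largest of any member in the negative direction, at an adjusted p of 0.0583. For set-26 it was -2.81 ± 0.94 (adjusted p = 0.166). Neither passed 0.05 in edgeR over all libraries. Leaving out mir-83 day 12 replicate 1 gave set-9 an edgeR adjusted p of 0.0449 and leaving out its replicate 2 gave 0.0176, while leaving out any 1 of the other 6 libraries gave 0.0749 to 0.354. DESeq2 over all libraries gave adjusted p of 5.84e-04 for set-9 and 0.0348 for set-26. Because reads of such close copies may be shared between them, the pair was also summed. The sum was 54.9 and 126 CPM in mir-83 worms at day 12 and 131 and 115 CPM at day 4, against 397 and 171 CPM in N2 worms at day 12 and 53.3 and 51.1 CPM at day 4. The share of set-26 in the pair ranged from 27.8% to 61.3% over the libraries. In replicate 2 both genes were matched to the annotation by name alone.

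**Figure D3:**
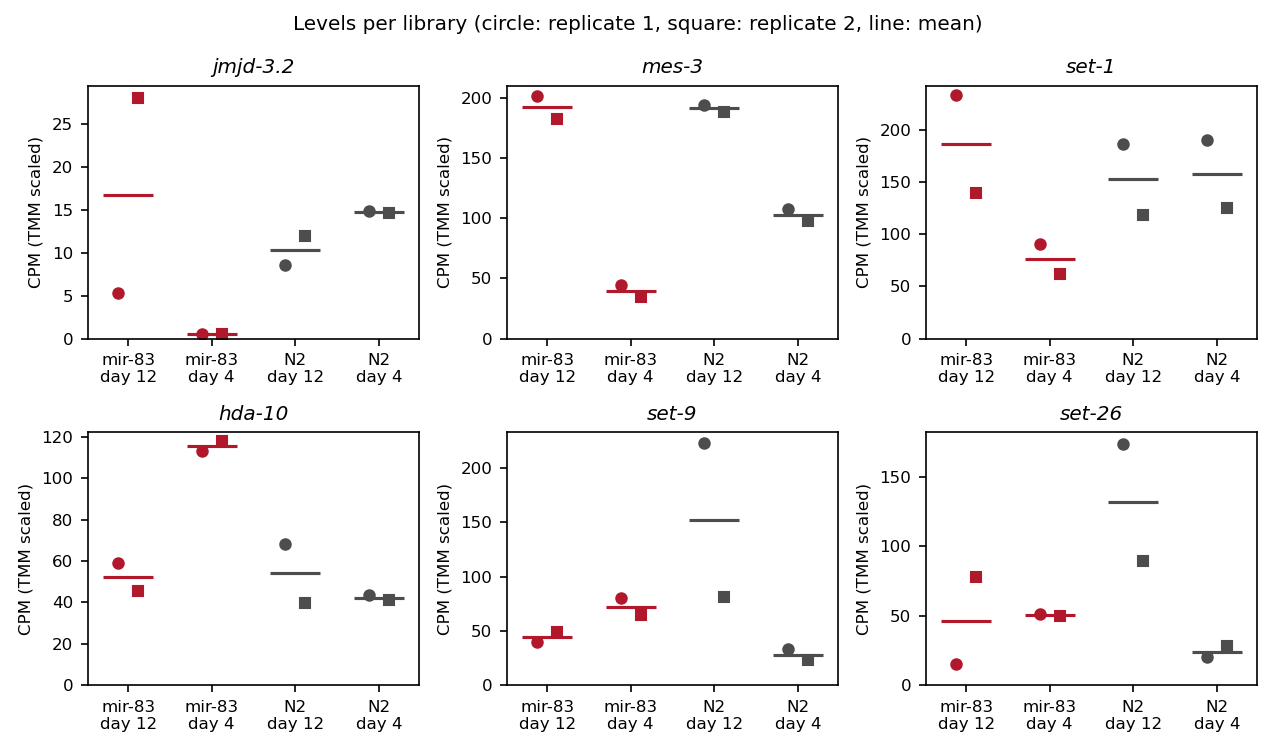
CPM in each of the 8 libraries is shown for jmjd-3.2, mes-3, set-1, hda-10, set-9 and set-26, with circles for replicate 1, squares for replicate 2 and a line at the group mean; mir-83 worms are red and N2 worms grey. The mir-83 day 4 pair is the lowest for jmjd-3.2, mes-3 and set-1 and the highest for hda-10, and N2 day 12 is highest for set-9 and set-26.

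Among the SET-domain genes of other or less settled role, 22 of 23 were tested, and 7 of them rose with age in mir-83 worms, against 12.8% of all tested genes. The median log2 fold change of the 22 was 1.06 there, and 0.35 in N2 worms. In mir-83 over N2 at day 4 it was -0.63, with 19 of 22 negative and 0 called, and at day 12 it was 0.06. Both day 4 libraries of the mutant lay below both of N2 for 13 of the 22, and above both for 0, against 35.4% and 29.5% of all tested genes.

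Long among these genes and called in both strains was set-5. set-5 was at 38.6 and 21.4 CPM at day 12 and 6.23 and 8.47 CPM at day 4 in mir-83 worms, against 48.1 and 41.3 CPM at day 12 and 10.5 and 12.8 CPM at day 4 in N2 worms. Its log2 fold change with age was 2.01 ± 0.43 in mir-83 worms and 1.94 ± 0.43 in N2 worms (edgeR adjusted p = 0.0143 and 0.0457). The ages did not overlap in either strain, and the mutant values were lower than those of N2 at each age.

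Another 6 genes of this group passed the threshold with age in mir-83 worms and not in N2 worms; for none of them was the difference between strains itself called. set-6 had 8.46 and 17.8 CPM at day 12 and 3.70 and 3.56 CPM at day 4 in the mutant, against 7.01 and 10.5 CPM at day 12 and 10.7 and 14.7 CPM at day 4 in N2. The gene, whose product is described as a brake on healthy ageing in worms, rose with age in mir-83 worms by 1.76 ± 0.49 (edgeR adjusted p = 0.0318), with -0.55 ± 0.47 in N2 worms (adjusted p = 0.453), so that the N2 estimate had the opposite sign. The difference of the mir-83 effect between ages for set-6 was 2.31 ± 0.67, with an edgeR adjusted p of 0.127 and a DESeq2 adjusted p of 0.00287.

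The libraries held set-22 at 72.4 and 46.3 CPM at day 12 and 14.2 and 19.2 CPM at day 4 in mir-83 worms, and at 61.9 and 49.4 CPM at day 12 and 33.0 and 36.9 CPM at day 4 in N2 worms. With age set-22 rose by 1.81 ± 0.35 in mir-83 worms (edgeR adjusted p = 0.00992), with 0.66 ± 0.34 in N2 worms. It shares 2494 bases with snf-10 on the opposite strand, and in replicate 2 it was matched by name alone. set-24 was at 60.7 and 35.0 CPM at day 12 and 18.1 and 15.8 CPM at day 4 in mir-83 worms, against 71.5 and 50.3 CPM at day 12 and 21.1 and 24.6 CPM at day 4 in N2 worms. The log2 fold changes of set-24 with age were 1.46 ± 0.34 in mir-83 worms (adjusted p = 0.0189) and 1.37 ± 0.34 in N2 worms (adjusted p = 0.0603). The span of set-24 shares 625 bases with Y43F11A.1 on the opposite strand. For set-27, mir-83 worms had 25.3 and 15.3 CPM at day 12 and 4.35 and 5.48 CPM at day 4, and N2 worms had 20.5 and 23.8 CPM at day 12 and 10.7 and 15.6 CPM at day 4. The fold change of set-27 was 2.06 ± 0.47 in mir-83 worms (adjusted p = 0.0169) and 0.76 ± 0.45 in N2 worms, and its annotated span shares 6910 bases with cox-6B on the same strand, so that its reads are uncertain.

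For set-3, mir-83 worms had 116 and 60.3 CPM at day 12 and 36.4 and 38.7 CPM at day 4, and N2 worms had 91.3 and 72.1 CPM at day 12 and 49.5 and 69.0 CPM at day 4. set-10 had 21.4 and 19.5 CPM at day 12 and 9.71 and 6.41 CPM at day 4 in the mutant, against 19.3 and 17.4 CPM at day 12 and 19.4 and 16.3 CPM at day 4 in N2. In both genes the mir-83 day 4 pair was the lowest of the 4 groups. With age set-3 rose by 1.2 ± 0.35 in mir-83 worms and set-10 by 1.37 ± 0.39, with edgeR adjusted p of 0.0388 and 0.0343. In N2 worms the values were 0.44 ± 0.35 for set-3 and 0.04 ± 0.38 for set-10.

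Of the other 15 tested genes of this group, none was called by edgeR. They spanned from set-11, with 0.0869 to 0.524 CPM over the libraries, to set-14, with 67.9 and 35.6 CPM at day 12 and 34.4 and 32.8 CPM at day 4 in mir-83 worms and 67.2 and 42.5 CPM at day 12 and 35.4 and 38.6 CPM at day 4 in N2 worms. The SMYD-related gene set-18, whose product methylates H3K36 in muscle and which is linked to lifespan, was at 3.15 and 4.66 CPM at day 12 and 6.38 and 5.2 CPM at day 4 in mir-83 worms, against 4.41 and 6.58 CPM at day 12 and 3.69 and 7.84 CPM at day 4 in N2 worms, with overlapping groups in the ageing comparison of N2 and a log2 fold change of -0.63 ± 0.55 in mir-83 worms. Of these 15, DESeq2 called set-15, set-28 and set-31 higher with age in mir-83 worms (adjusted p = 0.0237, 0.00654 and 0.0113). The untested gene set-8 had between 0 and 6 reads in a library.

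The demethylase genes held the steepest contrast at day 4. The Jumonji gene jmjd-3.2, on chromosome X at 14448210 to 14453567 (WBcel235), is a relative of the H3K27 demethylase genes utx-1 and jmjd-3.1. jmjd-3.2 was at 5.31 and 28.1 CPM at day 12 and 0.580 and 0.562 CPM at day 4 in mir-83 worms, against 8.62 and 12.0 CPM at day 12 and 14.9 and 14.6 CPM at day 4 in N2 worms. The mir-83 day 4 values stand for 8 and 12 reads, against 342 and 502 reads in N2 at that age. At day 4 the log2 fold change of mir-83 over N2 was -4.74 ± 0.77 (edgeR adjusted p = 0.0223), and at day 12 it was 0.49 ± 0.65 (adjusted p = 1.000).

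With age jmjd-3.2 rose by 4.65 ± 0.78 in mir-83 worms (edgeR adjusted p = 0.00650), with -0.58 ± 0.63 in N2 worms (adjusted p = 0.561). The mir-83 day 12 libraries were 5.31 and 28.1 CPM, the lowest and the highest of the libraries outside mir-83 day 4. Without mir-83 day 12 replicate 1 the log2 fold change with age in the mutant was 5.54, and without replicate 2 it was 3.3 (edgeR adjusted p = 0.00154 and 0.00637). The difference of the mir-83 effect between ages was 5.23 ± 0.99, the largest of any member in the positive direction (adjusted p = 0.0604 in edgeR, 3.24e-06 in DESeq2). Without mir-83 day 12 replicate 1 the edgeR adjusted p of that difference was 0.0116, without its replicate 2 it was 0.0332, and without any 1 of the other 6 libraries it was 0.114 to 0.354. The summed markers of embryos were likewise lowest in the mir-83 day 4 pair and highest in mir-83 day 12 replicate 2, at 11.3 and 39.5 CPM in mir-83 worms at day 12 and 1.59 and 2.2 CPM at day 4, against 18.1 and 13.9 CPM in N2 worms at day 12 and 26.6 and 26.7 CPM at day 4. Of those 9 markers, 3 were at 0 in some library. Their part in the result was not tested.

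The H3K27 demethylase gene jmjd-3.1, known for its part in a neuronal identity switch and in the mitochondrial stress response of worms, had the same low group. For jmjd-3.1, mir-83 worms had 8.09 and 36.8 CPM at day 12 and 2.54 and 4.03 CPM at day 4, and N2 worms had 20.3 and 22.4 CPM at day 12 and 10.5 and 15.7 CPM at day 4. With age it rose by 2.58 ± 0.58 in mir-83 worms (edgeR adjusted p = 0.0163), with 0.78 ± 0.54 in N2 worms (adjusted p = 0.361). In mir-83 over N2 at day 4 the estimate was -2.01 ± 0.56, at an adjusted p of 0.0674. The mir-83 day 12 replicates differed, as for jmjd-3.2, with replicate 2 the higher. Without replicate 1 the value of jmjd-3.1 with age in the mutant was 3.29, and without replicate 2 it was 1.56 (edgeR adjusted p = 0.00455 and 0.0424). The third H3K27 demethylase gene, utx-1, was at 31.2 and 35.0 CPM at day 12 and 17.9 and 18.9 CPM at day 4 in mir-83 worms, against 42.8 and 32.7 CPM at day 12 and 16.7 and 27 CPM at day 4 in N2 worms. It was not called by edgeR, while DESeq2 gave it an adjusted p of 0.0485 with age in mir-83 worms.

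Of the other demethylase genes, jmjd-1.2 and jmjd-5 rose with age. jmjd-1.2 was at 132 and 123 CPM at day 12 and 52.7 and 53.2 CPM at day 4 in mir-83 worms, against 204 and 154 CPM at day 12 and 59.9 and 87.5 CPM at day 4 in N2 worms. JMJD-1.2, a PHF8-like enzyme, acts with JMJD-3.1 in the mitochondrial stress response. Its gene rose by 1.27 ± 0.28 in mir-83 worms and 1.28 ± 0.28 in N2 worms, with edgeR adjusted p of 0.0156 and 0.0457. jmjd-5 had 47.9 and 40.4 CPM at day 12 and 13.9 and 16.5 CPM at day 4 in the mutant, against 37.9 and 37.7 CPM at day 12 and 24.5 and 40.3 CPM at day 4 in N2. The KDM8-like gene jmjd-5 rose by 1.55 ± 0.35 in mir-83 worms (adjusted p = 0.0168), with 0.25 ± 0.34 in N2 worms (adjusted p = 0.654).

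Over the 10 demethylase genes, 4 rose with age in mir-83 worms, 1 rose in N2 worms and 1 fell in the mutant at day 4, against 12.8%, 2.1% and 2.63% of all tested genes in the same comparisons and directions. Their median log2 fold change was 1.18 with age in mir-83 worms, 0.79 with age in N2 worms and -0.61 in the mutant at day 4. The KDM4-like gene jmjd-2 had 0.80 in mir-83 worms and 1.57 in N2 worms with age, and the LSD1-like gene lsd-1 had 1.09 in mir-83 worms and 0.30 in N2 worms. Neither was called by edgeR. DESeq2 gave jmjd-2 an adjusted p of 0.00532 with age in N2 worms, and lsd-1 one of 0.0163 with age in mir-83 worms. The sparse genes jmjd-1.1, jmjd-3.3 and jmjd-4 reached at most 6.30 CPM in any library and were not called by edgeR. With age, DESeq2 gave jmjd-1.1 an adjusted p of 0.00500 in mir-83 worms and 0.0290 in N2 worms, where edgeR gave 0.0721 and 0.153, and it gave jmjd-4 an adjusted p of 0.0434 in N2 worms, where edgeR gave 0.172. Within the mir-83 day 4 pair, jmjd-3.3 was at 6.30 and 0.328 CPM.

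The histone deacetylase genes split. Among class I, hda-2 rose with age in mir-83 worms. For hda-2, mir-83 worms had 80.7 and 59.7 CPM at day 12 and 21.4 and 21 CPM at day 4, and N2 worms had 70.9 and 65.4 CPM at day 12 and 39.7 and 43.5 CPM at day 4. Its log2 fold change was 1.72 ± 0.28 in mir-83 worms (edgeR adjusted p = 0.00586) and 0.71 ± 0.27 in N2 worms (adjusted p = 0.140). hda-1 was at 222 and 139.6 CPM at day 12 and 314 and 248 CPM at day 4 in mir-83 worms, against 235.5 and 126 CPM at day 12 and 149.5 and 155 CPM at day 4 in N2 worms. The main class I enzyme gene hda-1, needed in development, was thus highest in the mir-83 day 4 libraries, with 0.85 ± 0.28 at day 4 over N2 (adjusted p = 0.105) and -0.66 ± 0.28 with age in the mutant (adjusted p = 0.111). The third gene, hda-3, ranged from 67.8 to 129 CPM and was not called.

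The class II genes hda-10 and hda-5 were the members that fell with age in mir-83 worms in the fit to all libraries. Without mir-83 day 12 replicate 1 neither was called, with log2 fold changes of -1.22 for hda-10 and -1.31 for hda-5 (edgeR adjusted p = 0.0510 and 0.0628). Without replicate 2 both were called, at -1.11 for hda-10 and -2.71 for hda-5, together with set-9 and set-26. hda-10 was at 58.9 and 45.4 CPM at day 12 and 113 and 118 CPM at day 4 in mir-83 worms, against 68.1 and 39.8 CPM at day 12 and 43.5 and 41.1 CPM at day 4 in N2 worms. The mir-83 day 4 pair of hda-10, on chromosome II at 13882705 to 13888034 (WBcel235), lay above all 6 other libraries. In mir-83 over N2 at day 4 the gene rose by 1.46 ± 0.28 (edgeR adjusted p = 0.0289), and with age it fell in the mutant, with a log2 fold change of -1.17 ± 0.28 (adjusted p = 0.0205) against 0.32 ± 0.28 in N2 worms (adjusted p = 0.469). Under plain library sizes the log2 fold changes of hda-10 were 0.60 at day 4 and -0.20 with age in the mutant, neither of them past the threshold.

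For hda-5, mir-83 worms had 5.07 and 16.6 CPM at day 12 and 33.9 and 40.6 CPM at day 4, and N2 worms had 6.75 and 9.60 CPM at day 12 and 21.4 and 24.6 CPM at day 4. The gene fell with age in the mutant, with a log2 fold change of -1.93 ± 0.48 (edgeR adjusted p = 0.0226), and in N2 worms the value was -1.53 ± 0.47, the smallest p of any member lower with age there (adjusted p = 0.0945). The ages did not overlap in either strain. Under plain library sizes the value in the mutant was -0.96 and was not past the threshold. The intestine and body wall muscle markers given above were highest in the same mir-83 day 4 libraries, and their part in these results was not tested.

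The class IIa gene hda-4, which regulates chemoreceptor genes in neurons, was also highest in the mir-83 day 4 pair, without an edgeR call. It was at 11.2 and 15.7 CPM at day 12 and 26 and 19.6 CPM at day 4 in mir-83 worms. In N2 worms it was at 16.5 and 13.3 CPM at day 12 and 10 and 10.4 CPM at day 4. DESeq2 called hda-4 higher in the mutant at day 4, with a log2 fold change of 1.17 (adjusted p = 0.0262). The neuron markers summed to 401 and 247 CPM in mir-83 worms at day 12 and 1089 and 698 CPM at day 4, against 371 and 234 CPM in N2 worms at day 12 and 540 and 378 CPM at day 4. Of these 9 markers, 6 had a positive and 3 a negative log2 fold change of mir-83 over N2 at day 4. Their median was 0.20, and 2 were called higher, against 4.43% of all tested genes. Their part in the hda-4 values was not tested. The HDAC6-like gene hda-6 was at 185 and 138 CPM at day 12 and 80.8 and 110.1 CPM at day 4 in mir-83 worms, against 212 and 169 CPM at day 12 and 95.0 and 140.3 CPM at day 4 in N2 worms, and the class IV gene hda-11 did not pass 2.74 CPM in any library. Neither was called. The membrane-protein gene mes-1 was at 17.7 and 16.4 CPM at day 12 and 11.7 and 12.0 CPM at day 4 in mir-83 worms, against 19.0 and 12.4 CPM at day 12 and 6.82 and 9.55 CPM at day 4 in N2 worms, and was not called.

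The comparisons with age in the strains use separate libraries, and 5 members rose in both: jmjd-1.2, met-1, met-2, set-2 and set-5. They are 5 of the 20 called in mir-83 worms and 5 of the 7 called in N2 worms. The share of all tested genes called in both strains was not counted. All 5 have transcripts of 2955 bases or more. Of all tested genes that long, 21.7% were called higher with age in mir-83 worms and 16.3% in N2 worms. With the offset for transcript length given below, none of the 5 was called in N2 worms. For all 56 members the difference of the mir-83 effect between the ages was fitted, and edgeR called 0 higher and 0 lower, as for 0% of all genes; 9 were higher and 4 lower with a raw p under 0.05. These 13 are 23.2% of the members, against 18.4% of all tested genes. By DESeq2 6 members (10.7%) were called in that comparison, against 8.38% of all tested genes; jmjd-3.2, mes-3, set-1 and set-6 were positive and set-9 and set-26 negative.

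The number of calls leaned on single libraries. Without mir-83 day 4 replicate 1, only mes-3 was still called higher with age in the mutant, and without replicate 2 only mes-3, met-2 and set-22; without mir-83 day 12 replicate 1 the count was 12, and without its replicate 2 it was 23, against 7.57% and 17.6% of all genes tested in those fits. Of the 20, those lost without mir-83 day 12 replicate 1 were jmjd-1.2, jmjd-5, mes-6, set-3, set-10, set-24, set-27 and set-32, and those lost without its replicate 2 were set-6 and set-10. Without mir-83 day 12 replicate 1 the log2 fold change of set-27 was 1.47, against 2.06 with all libraries. Without the replicate block, the calls of N2 worms with age were met-2 and set-2 alone, and those at day 4 were jmjd-3.2 and mes-3 alone. In N2 worms, 0 of the 7 calls remained without any 1 of the 4 N2 libraries, and set-2 alone remained without either mir-83 day 4 library. At day 4 none of the 4 calls remained without any 1 of the 4 libraries compared. In those fits the lone library of a group is assumed to vary like the other groups. Over all tested genes, calls in the same directions also became far fewer without any 1 of the libraries compared at day 4. They also became far fewer with age in N2 worms without an N2 or mir-83 day 4 library. With age in the mutant they became far fewer without either mir-83 day 4 library. These losses were therefore not particular to the members. Without both mir-83 day 12 libraries, 13 members rose with age in N2 worms, against 7.86% of all genes tested there, and in the mutant at day 4, 8 members fell and 2 rose, against 6.54% and 8.96% of those genes.

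Transcript length moved with these results, and the members were long. Their longest annotated transcripts had a median of 1999 bases, against 1299 bases for all tested genes, and 49 of 56 were longer than that median. In N2 worms the median log2 fold change with age was 0.79 in the longest of 10 equal length classes of genes (2955 bases or more) and -0.59 in the shortest, whereas in mir-83 worms these were 0.23 in the longest and -0.12 in the shortest class. All 7 members called in N2 belong to the 17 members of the longest class (41.2%, against 16.3% of all genes of that length), and 0 of the 39 shorter members were called. In mir-83 worms, 8 of the 17 longest were called higher (47.1%, against 21.7%) and 12 of the 39 shorter ones (30.8%, against 11.8%).

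With an offset for transcript length in the same fit, 0 members were called higher with age in N2 worms and 23 in mir-83 worms, against 0.0819% and 15.2% of all tested genes, where all of the 20 were still called and hda-10 and hda-5 were still called lower. The adjusted p of the 7 N2 genes then lay between 0.0681 for set-9 and 0.218 for met-1, with log2 fold changes from 0.63 for met-1 to 1.47 for set-9. At day 4 that fit called 4 members lower, jmjd-3.1, jmjd-3.2, mes-3 and set-6, and 1 higher, hda-10. Of all tested genes it called 2.89% lower and 6.68% higher at day 4. Across the 56 members, Pearson's r between log2 transcript length and log2 fold change was 0.04 with age in mir-83 worms and 0.52 with age in N2 worms, and for mir-83 over N2 it was 0.16 at day 4 and -0.59 at day 12. These are descriptions over genes that share the same libraries. At day 12 the longest class of all genes had a median of -0.31, which was -0.52 between the replicate 1 libraries and -0.13 between the replicate 2 libraries. The part of length in the members' changes beyond this offset was not tested.

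**Figure D4:**
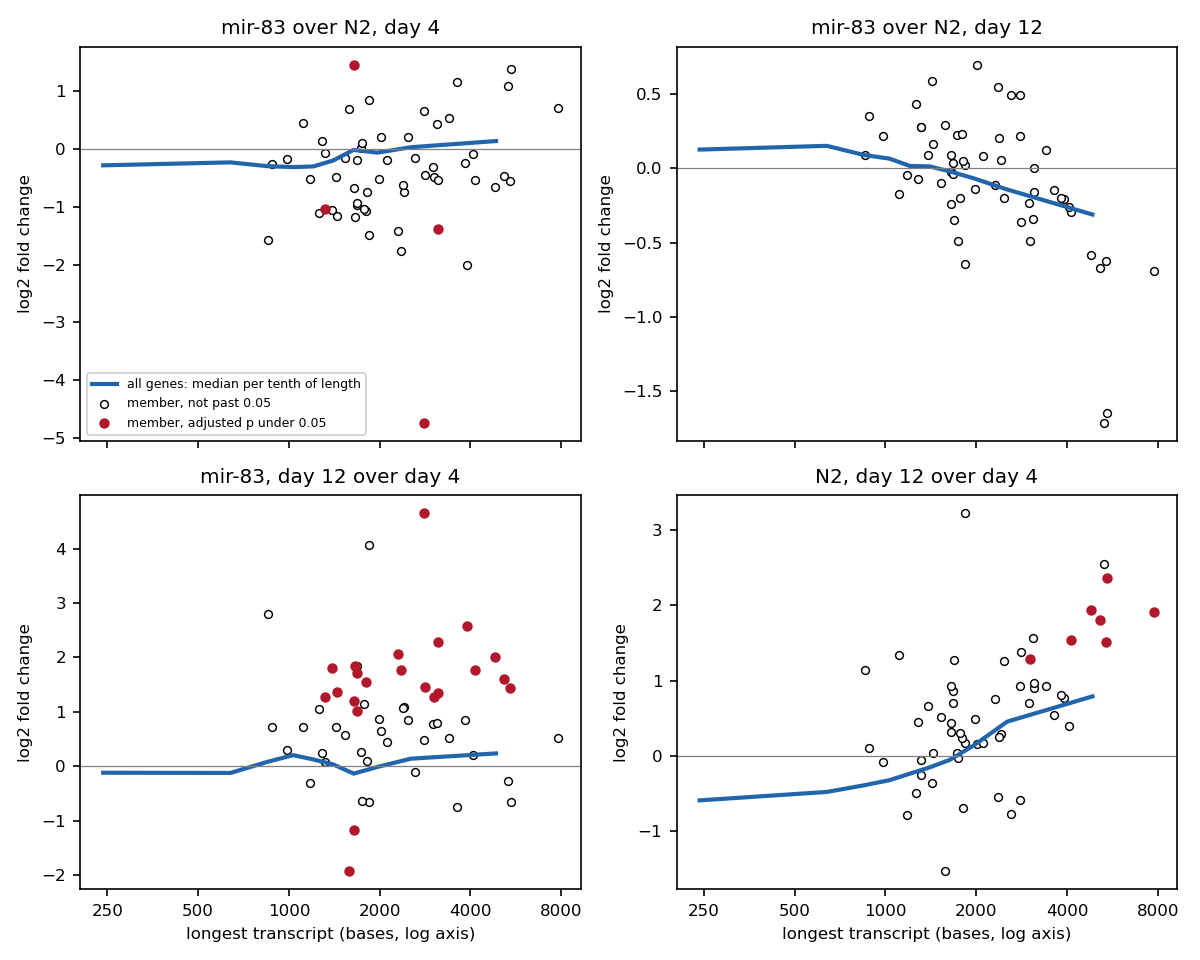
Each point is a member, with its longest transcript on a log axis in bases and its log2 fold change, red where the adjusted p was under 0.05; the blue line joins the medians of all tested genes in 10 length classes. In N2 worms the line climbs to 0.79 and the 7 red points sit at its long end, while in mir-83 worms the red points are spread over lengths.

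Position on the X chromosome was a further property that the names did not use. Of the 56 tested members, 14 lie on the X. With age their median log2 fold change was 0.78 in mir-83 worms and 0.35 in N2 worms, whereas the median of all 2194 tested X genes was -0.64 in mir-83 worms and -0.60 in N2 worms. For the 42 autosomal members the medians were 0.94 in mir-83 worms and 0.68 in N2 worms, and for all autosomal genes 0.17 in mir-83 worms and 0.00 in N2 worms.

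The partners of these enzymes, 46 genes of histone-modifying complexes, sirtuins, further demethylases and methyltransferases and readers of histone methylation, were counted in the same fit. In mir-83 worms 16 of 46 rose with age and 0 fell, against 12.8% of all tested genes higher and 15.1% lower. In N2 worms 3 rose and 0 fell, against 2.1% and 2.39% of all tested genes. In the mutant at day 4, 3 fell and 0 rose, against 2.63% of all tested genes lower and 4.43% higher, and at day 12 edgeR called 0, with 1 at a raw p under 0.05. The median log2 fold change of the 46 was 0.73 with age in mir-83 worms, 0.50 with age in N2 worms and -0.34 in the mutant at day 4. The genes with calls at day 4 were the sirtuin gene sir-2.1 (-1.53 ± 0.25, edgeR adjusted p = 0.0223), the H3K4 demethylase gene rbr-2 (-1.29 ± 0.28, adjusted p = 0.0377) and the COMPASS gene cfp-1 (-1.1 ± 0.24, adjusted p = 0.0382). Among the deacetylase partners, sin-3 rose with age by 1.78 ± 0.23 in mir-83 worms (adjusted p = 0.00330) and 1.33 ± 0.23 in N2 worms (adjusted p = 0.0290).

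Markers of the tissues that express many of these enzymes differed between the groups as well. The 17 germline markers summed to 5223 and 3483 CPM in mir-83 worms at day 12 and 7856 and 7059 CPM at day 4, against 6875 and 3925 CPM in N2 worms at day 12 and 3247 and 3016 CPM at day 4. In mir-83 worms with age, 2 of the 17 rose and 5 fell, against 12.8% and 15.1% of all tested genes, while in N2 worms 4 rose and 0 fell, against 2.1% and 2.39%, so that the germline list and the members had opposite median signs with age in the mutant (-0.49 for the list). In the mutant at day 4, 7 of the 17 rose and 0 fell, against 4.43% and 2.63% of all tested genes. The median of the members was negative there. Of the 8 tested embryo markers, 6 rose with age in mir-83 worms, against 12.8% of all tested genes. In the mutant at day 4, 4 of them fell, against 2.63%. With age in N2 worms 0 were called, against 2.1% of all tested genes higher and 2.39% lower. The 9 sperm markers summed to 208 and 55.8 CPM in mir-83 worms at day 12 and 35.4 and 44.0 CPM at day 4, against 131 and 225 CPM in N2 worms at day 12 and 56.6 and 43.2 CPM at day 4. Their part in the members' changes was not tested.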

How the data were processed

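Whole-worm RNA of 4 groups, mir-83 mutants (MT15501) and N2 at adult day 12 and day 4, was read as 2 libraries a group. The authors deposited 2 sheets of raw read counts per transcript, one per replicate number, under WormBase sequence names in replicate 1 and RefSeq accessions with gene names in replicate 2, per the file headers. Bowtie2, edgeR and the build ce11 are named without versions in the submitters' processing notes; trimming, the assignment of reads to isoforms and the use of strand are not stated there.

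Rows were matched to WormBase genes of the WBcel235 annotation and to RefSeq gene names, and summed per gene. In replicate 1, 207 rows holding 0.0837% of the reads, and in replicate 2, 203 rows holding 0.240% of the reads, named no matched gene and were left out. For 10 members the replicate 2 rows were matched by gene name alone. Genes passing edgeR's filterByExpr were fitted over all 8 libraries in R 4.3.3 with edgeR 4.0.16 (glmQLFit and glmQLFTest on counts, TMM factors, 1 mean per group, replicate number as a block). Benjamini-Hochberg adjustment ran over all 15874 tested genes, at a threshold of 0.05. The block was kept because each replicate number has its own sheet and annotation; deviations from the group means of libraries with the same number correlated at r = 0.119 to 0.416 over the 6 pairs of groups. A plus-or-minus value is a standard error from this fit. Depth limits precision for members with few reads.

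Alternatives were RLE factors, plain library sizes, no filter, no replicate block, DESeq2 1.42.0, a gene length offset (lowess, span 0.3), stricter row matching and each library, or both mir-83 day 12 libraries, left out. The scripts were tested on simulated data for mir-83 against N2 at day 4. There 56, 73 and 71 genes, none of them sparse, were changed 2-fold, 4-fold and 8-fold, and no other gene differed between groups. The real libraries differ in many more genes, so the simulated rates need not hold for them. Of the changed genes, 3.57% at 2-fold, 47.95% at 4-fold and 74.65% at 8-fold were called. A missing call therefore does not show that a member was unchanged. Members named in full were those past 0.05 in any comparison and those with the smallest p per comparison and direction. Members and lists were chosen with earlier results of these data known, so their counts are descriptions. The embryo, germline, sperm, muscle, intestine and neuron marker lists were fixed the same way. opt-2 and msd-1 of these lists were not used here. No sequences are shown.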

Additional observations from a re-analysis of the deposited data

How the results depend on the processing

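No call and no smallest-p value of a member changed direction under an alternative, and at day 12 every setting that could be fitted called 0 members in mir-83 against N2. Counts below are members higher, then lower. Under plain library sizes the all-gene median moved, on the log2 scale, from -0.14 to -0.99 at day 4, from 0.05 to 1.01 with age in mir-83 worms and from 0.08 to 0.95 for the difference of the mir-83 effect; there 0 and 27 members were called at day 4, 41 and 0 with age in mir-83 worms, 11 higher with age in N2 worms, and 10 and 1 for the difference. Under plain library sizes 1.32% and 24.1% of all tested genes were called at day 4, and 37.3% and 6.16% with age in mir-83 worms. With age in N2 worms 4.14% were called higher, and for the difference 10.3% and 0.68% were called. DESeq2 called 3 and 8 members at day 4, against 1508 and 1132 of the 15874 tested genes. It called 16 and 1 with age in N2, against 1776 and 1504 genes. For the difference it called 4 and 2, against 596 and 734 genes. Without the replicate block (the pairing by sheet) the counts were 0 higher at day 4, 1 lower with age in mir-83 worms, and 2 higher with age in N2 worms, so the block raised the count of calls. Of all tested genes, 1.29%, 11.6% and 0.302% were called in these comparisons and directions. The length offset left 0 higher with age in N2, against 0.0819% of all tested genes. Without a filter 1 and 1 members were called for the difference, against 0.485% and 1.22% of all genes tested in that fit. Without both mir-83 day 12 libraries, 2 and 8 were called at day 4, against 8.96% and 6.54% of all genes tested there. With age in N2 that fit called 13 and 1, against 7.86% and 7.07%. Leaving out each library in turn gave 0 to 2 higher and 0 to 9 lower at day 4, 1 to 23 higher and 0 to 4 lower with age in mir-83 worms, 0 to 13 higher and 0 to 1 lower with age in N2, and 0 to 1 higher and 0 to 2 lower for the difference. The other settings stayed within 1.5 times. The cause of these shifts was not tested, except that plain library sizes omit the correction for the abundant genes of the mir-83 day 4 libraries, and that fits without a library rest on fewer samples. Depth limits the sparse members: jmjd-3.2 had 8 and 12 reads in the mir-83 day 4 libraries.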
